A study of Homo sapiens with 16 samples.

Results

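ATF4 encodes the transcription factor at the centre of the integrated stress response, and 9 further genes that act in or report on that response were followed with it: ASNS, TRIB3, DDIT3, CHAC1, SESN2, NUPR1, DDIT4, PSAT1 and PHGDH. They were chosen by name, as the rows of the deposited table whose gene symbol equals one of these symbols, so 10 genes of 24293 loci are described. Each of the 10 had a single row. The cells were HCC4006, an established line of non-small cell lung cancer that depends on mutant EGFR, grown for 24 hours and then treated for 24 hours. Vehicle cells received DMSO, the gefitinib group 100 nM of that EGFR kinase inhibitor, the AZ1366 group 100 nM of that tankyrase inhibitor, and the combination group both compounds at 100 nM each. Each group has 4 libraries of polyA RNA, 16 in all, from a single line at a single dose and time. Nothing in the labels ties the 4 libraries of a group to independent cultures; the p-values therefore rest on library-to-library spread, which may be technical.

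When amino acids run short, unfolded protein builds up in the endoplasmic reticulum, haem is lacking or viral RNA is present, kinases phosphorylate the initiation factor eIF2. Translation of most mRNAs then falls, whereas that of ATF4 mRNA rises because of short reading frames ahead of its coding sequence. ATF4, paired with C/EBP and related factors, then switches on genes of amino acid supply and redox balance, and later genes that limit growth or promote death. ATF4 activity is therefore set largely at translation, which RNA abundance does not measure.

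ATF4 binds a composite C/EBP-ATF element whose core reads TGATGNAA. The promoters of the 2 genes of the set that carry these letters are shown because both genes changed with treatment. They are RefSeq sequences on GRCh38.p14, the 250 bases before the annotated start on the gene's strand, with the match in capitals on whichever strand it lies. The ASNS window shown is chr7:97872409-97872658 on the minus strand. A further annotated start of ASNS had a window without a match. The CHAC1 window is chr15:40953221-40953470 on the plus strand, where the element reads on the opposite strand.
ASNS: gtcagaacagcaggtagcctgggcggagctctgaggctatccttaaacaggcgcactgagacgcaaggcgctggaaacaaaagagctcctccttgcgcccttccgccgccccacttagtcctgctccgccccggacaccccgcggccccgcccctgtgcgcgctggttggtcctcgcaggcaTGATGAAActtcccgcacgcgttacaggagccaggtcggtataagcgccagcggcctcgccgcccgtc
CHAC1: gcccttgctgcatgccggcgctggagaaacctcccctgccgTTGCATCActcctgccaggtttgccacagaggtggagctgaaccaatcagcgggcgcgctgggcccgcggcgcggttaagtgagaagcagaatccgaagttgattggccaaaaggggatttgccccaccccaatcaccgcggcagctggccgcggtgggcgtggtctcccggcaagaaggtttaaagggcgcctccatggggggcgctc
The first base of the match lies 68 bases before the start in ASNS and 209 before it in CHAC1. Windows from 250 bases before to 50 after a start were given for 9 of the 10 genes, all but NUPR1, and these 2 were the genes with a match on either strand. Among 35116 windows of all genes, 1270 held one (3.62%). A window without a match says only that the letters are absent from it.

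Expression is in FPKM, a unit that corrects fragment numbers for the length of the transcript and the size of the library, so levels can be compared between genes. The summed FPKM of a library ran from 433357 to 478179. Fragment numbers behind these values were not analysed here, which leaves the depth of each library unknown and the values without counting intervals. AZ1366 replicate 1 stood apart from its group on the first principal component, at -19.6 against -6.50 to -3.10 for the other 3 AZ1366 libraries and -39.3 to -33.96 for vehicle, and results that rest on it are given with and without it. The epithelial keratins and adhesion genes KRT7, KRT8, KRT18, KRT19, EPCAM and CDH1 summed to between 3573 and 5922 FPKM in every library, and the sum was highest with vehicle. By group mean KRT7, KRT8 and KRT18 were highest with vehicle, CDH1 and KRT19 with AZ1366, and EPCAM with both compounds. Of the 8 measured markers of other cell types HBB was at 0 throughout and PTPRC, CD3E and PECAM1 did not exceed 0.139 FPKM. CDH5 reached 0.680, COL1A1 lay at 1.396 to 2.11, and CD68, which encodes a lysosomal protein, at 33.5 to 63.0 FPKM. The marker sum, nearly all CD68, was 35.4 to 39.6 with vehicle, 52.0 to 57.0 with gefitinib, 40.1 to 47.2 with AZ1366 and 59.4 to 65.6 with both.

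With vehicle, ATF4 was the most abundant of the 10 mRNAs at 80.3 ± 7.17 FPKM (SD, n = 4 here and below). TRIB3, which encodes a pseudokinase that restrains AKT and ATF4 itself, followed at 53.0 ± 6.06, and PSAT1, the aminotransferase of serine synthesis, at 34.9 ± 0.777. DDIT4, which encodes an inhibitor of mTORC1, stood at 29.2 ± 2.40 and ASNS, asparagine synthetase, at 28.0 ± 0.844, and the ranges of these 2 genes overlapped. Then came PHGDH, the first enzyme of serine synthesis, at 13.1 ± 0.609 FPKM, and DDIT3, which encodes the pro-apoptotic factor CHOP, at 8.08 ± 1.43. SESN2, a leucine sensor that restrains mTORC1, stood at 3.75 ± 0.415 and CHAC1, which breaks down glutathione, at 2.21 ± 0.339. NUPR1, a small stress-induced chromatin protein, was lowest at 0.961 ± 0.118. Apart from DDIT4 and ASNS, neighbours in this order did not overlap. NUPR1 met the filter of a mean of 1 FPKM only through its gefitinib-treated libraries, so it had to differ and its call is not support. In bulk RNA a change in the makeup of the cells and a change in RNA per cell cannot be told apart.

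**Figure D1:**
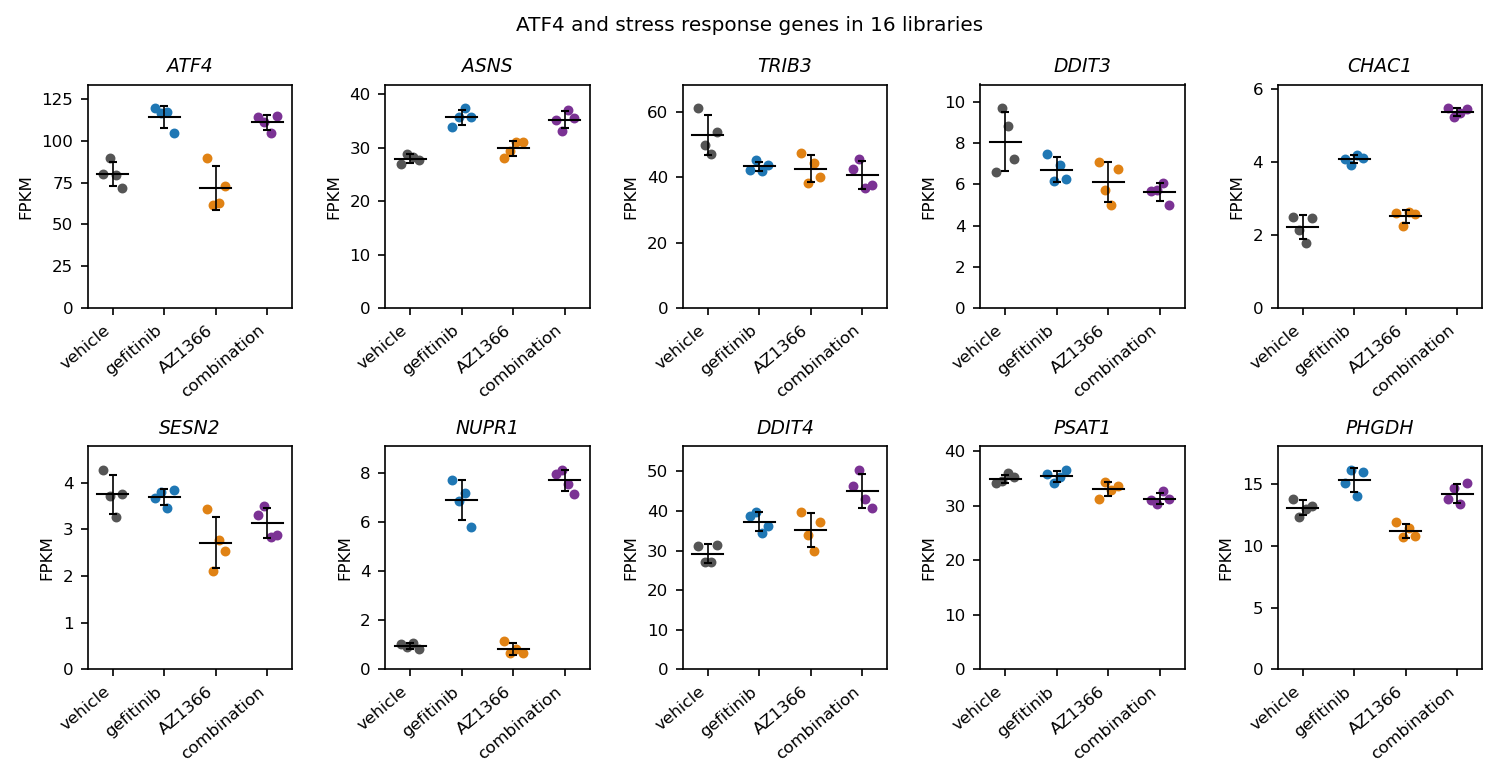
FPKM of the 10 genes (vertical axes from 0, FPKM) in the 4 treatment groups (horizontal axes); each point is 1 library, the bar is the mean and the whiskers are the SD of 4 libraries. NUPR1, CHAC1, ATF4 and ASNS lie higher in all 8 libraries that received gefitinib than in the 8 that did not. NUPR1, which the filter favoured, is at 5.81 or above against 1.17 or below. ATF4 is at 104.5 or above against 89.91 or below. How many of all loci separate in this way was not counted. It is at most 22.7%, the share that lay higher without overlap with both compounds than with AZ1366. For gefitinib against vehicle that share was 25.2%.

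Gefitinib was set against vehicle first, to see how these genes stand when EGFR is inhibited. NUPR1, CHAC1, ATF4, DDIT4, ASNS and PHGDH were higher, TRIB3 was lower, and DDIT3, SESN2 and PSAT1 did not pass the test. Differences are given on the log2(FPKM + 1) scale, where those of low genes are understated, with standard errors from limma and adjusted p-values by Benjamini-Hochberg over 11647 loci. NUPR1 read 1.04, 0.909, 1.07 and 0.820 FPKM in the vehicle libraries and 7.73, 6.85, 7.19 and 5.81 with gefitinib. The lowest gefitinib library was thus above the highest vehicle library by several times the spread of either group. The ratio of the group means was 7.17, and the log2 change was 2.01 ± 0.088. Since the filter favoured NUPR1 through these libraries, its p-value and its rank among all rises are not given.

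CHAC1, a classical late target of ATF4 with CHOP, read 2.50, 2.14, 1.77 and 2.45 FPKM with vehicle and 4.08, 3.92, 4.19 and 4.10 with gefitinib. Its groups did not overlap, and the gefitinib libraries lay closer together than the vehicle ones. The log2 change was 0.66 ± 0.067 (limma adjusted p = 1.52e-07), a ratio of means of 1.84.

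ATF4 mRNA itself read 80.2, 89.5, 79.4 and 72.0 FPKM with vehicle and 119, 116, 117 and 105 with gefitinib. The groups did not overlap, and the mean was 42.5% higher (log2 0.51 ± 0.094, limma adjusted p = 0.000154). ASNS, which makes asparagine from aspartate and glutamine, read 26.9, 28.9, 28.3 and 27.7 FPKM with vehicle and 33.9, 35.8, 37.4 and 35.9 with gefitinib. The rise of ASNS was 27.8% (log2 0.34 ± 0.050, limma adjusted p = 1.24e-05), again without overlap.

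DDIT4 read 31.1, 27.2, 27.1 and 31.5 FPKM with vehicle and 38.6, 39.8, 34.4 and 36.3 with gefitinib, a rise of 27.7% with no overlap. Its log2 change was 0.34 ± 0.085 (limma adjusted p = 0.00192). PHGDH, which commits the glycolytic intermediate 3-phosphoglycerate to serine, read 13.8, 12.4, 13.0 and 13.3 FPKM with vehicle and 15.1, 16.2, 14.04 and 16.04 with gefitinib. The lowest gefitinib value of PHGDH was just above the highest vehicle value, and the log2 change was 0.21 ± 0.058 (limma adjusted p = 0.00462). PSAT1, which catalyses the next step, lay between 34.1 and 35.9 FPKM with vehicle and between 34.2 and 36.5 with gefitinib. Its log2 change was 0.020 ± 0.045 (limma adjusted p = 0.714), with a 95% interval of -0.075 to 0.11, and it became a fall of 0.099 (adjusted p = 0.0294) after a correction for transcript length and GC content.

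TRIB3 moved the other way. It read 61.1, 49.9, 47.2 and 53.8 FPKM with vehicle and 42.2, 45.2, 42.1 and 43.9 with gefitinib. The vehicle libraries were spread more widely, yet the lowest of them was above the highest gefitinib library. TRIB3 fell by 18.2% (log2 -0.28 ± 0.084, limma adjusted p = 0.00799). DDIT3 read 6.58, 9.69, 8.82 and 7.24 FPKM with vehicle and 7.47, 6.18, 6.95 and 6.25 with gefitinib, and these groups overlapped. The DDIT3 change of -0.23 ± 0.11 did not pass (limma adjusted p = 0.0736), but passed without CTRL 1 (-0.31, adjusted p = 0.0200) and after length and GC correction (-0.38, adjusted p = 0.0116). The DDIT3 locus shares its interval in the file with MARS, the methionyl-tRNA synthetase gene, at 61.3 ± 5.00 FPKM with vehicle, and whether the counting kept the strand is not stated, so reads where the genes overlap may not be told apart. SESN2 read 4.27, 3.72, 3.26 and 3.76 FPKM with vehicle and 3.67, 3.81, 3.46 and 3.84 with gefitinib, a log2 change of -0.014 ± 0.091 (limma adjusted p = 0.897, 95% interval -0.20 to 0.18).

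Gefitinib therefore changed 7 of the 10 genes, 6 higher and 1 lower, or 6 of 9 (66.7%), 5 higher and 1 lower, leaving out NUPR1, which the filter favoured. Among all loci 64.6% passed, 27.7% higher and 36.9% lower, with a median change of -0.056, against a median of 0.28 over the 10 and 0.21 without NUPR1, so the share called was near that of all loci. The 6 rises and the fall of TRIB3 also had no overlap between groups, as 60.9% of all loci did. No overlap in the upward direction was found for 25.2% of all loci and in the downward direction for 35.7%. Quantile normalization and median-ratio scaling each left the count at 7, with 8025 and 7804 of all loci called, against 7521. The count was 8 without CTRL 1 (6 higher and 2 lower), beside 7070 of all loci. It was 9 after length and GC correction (6 higher and 3 lower), beside 7751.

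**Figure D2:**
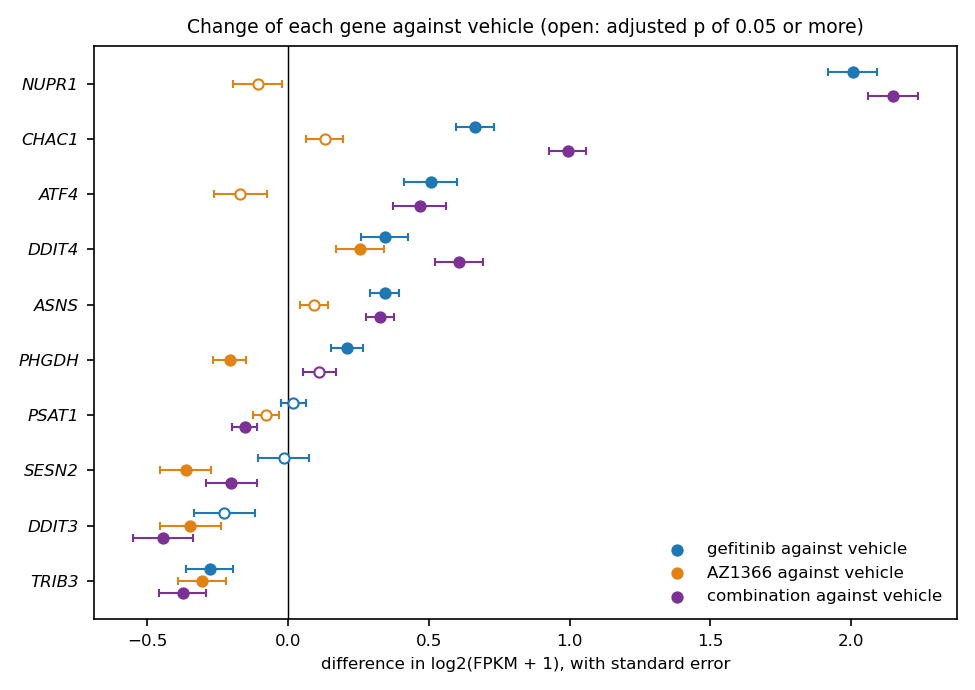
Difference in log2(FPKM + 1) from vehicle (horizontal axis) for the 10 genes, ordered by the gefitinib change, for gefitinib, AZ1366 and the combination; whiskers are standard errors of the limma fit over 16 libraries and open points did not pass an adjusted p of 0.05. NUPR1 lies at 2.01 with gefitinib and 2.15 with both compounds but at -0.11 with AZ1366 alone, whereas TRIB3 lies below 0 in each comparison.

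AZ1366 alone was next set against vehicle. SESN2, DDIT3, TRIB3 and PHGDH were lower, DDIT4 was higher, and NUPR1, CHAC1, ATF4, ASNS and PSAT1 did not pass. Of all loci 58.4% passed, 18.6% higher and 39.8% lower. The median change was -0.14 over the 10 and -0.17 without NUPR1, against -0.10 over all loci. Median-ratio scaling moved that median to 0.0038 and the higher share of all calls from 31.9% to 50.04%, and quantile normalization moved that share to 48.0%, so small changes here depend on the scaling.

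SESN2 read 3.43, 2.12, 2.78 and 2.54 FPKM with AZ1366. Its replicate 1, the library that stood apart, overlapped vehicle and the other 3 did not. The change was -0.36 ± 0.091 (limma adjusted p = 0.00273), and -0.13 (adjusted p = 0.0722) after length and GC correction. DDIT3 read 7.07, 5.71, 4.98 and 6.75 FPKM (log2 -0.35 ± 0.11, limma adjusted p = 0.0109), with overlap, and did not pass after quantile normalization (-0.19, adjusted p = 0.119). MARS, which shares the interval, fell by 0.33 (limma adjusted p = 0.000296).

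TRIB3 read 47.5, 38.4, 44.5 and 40.2 FPKM, with only replicate 1 inside the vehicle range. It fell by 0.31 ± 0.084 (limma adjusted p = 0.00531). PHGDH read 11.97, 10.7, 11.5 and 10.8 FPKM, below each vehicle library (26.0% of all loci were without overlap and lower, 40.6% in either direction), and its change of -0.21 ± 0.058 (limma adjusted p = 0.00635) was the opposite of that with gefitinib. Scaling ended the PHGDH call: it was -0.091 (adjusted p = 0.141) after median-ratio scaling and -0.055 (adjusted p = 0.376) after quantile normalization. DDIT4 read 39.7, 33.8, 29.9 and 37.3 FPKM, of which replicate 3 lay in the vehicle range. Its rise was 0.26 ± 0.085 (limma adjusted p = 0.0157), and without AZ1366 replicate 4 it was 0.23 (adjusted p = 0.0515).

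ATF4 read 89.9, 61.8, 62.9 and 73.0 FPKM with AZ1366. Replicate 1 was above every vehicle library and 2 of the others were below all of them. The change was -0.17 ± 0.094 (limma adjusted p = 0.130), and without AZ1366 replicate 1 it was -0.28 (adjusted p = 0.00253). NUPR1 was also highest in replicate 1, with 1.17 FPKM in replicate 1 against 0.663, 0.832 and 0.651 in the others. NUPR1 changed by -0.11 ± 0.088 (limma adjusted p = 0.300), and by -0.19 (adjusted p = 0.0338) without that replicate. CHAC1 read 2.59, 2.24, 2.62 and 2.58 FPKM and ASNS 28.1, 29.4, 31.1 and 31.0, both overlapping vehicle. CHAC1 changed by 0.13 ± 0.067 (limma adjusted p = 0.1003), passed without CTRL 1 (0.17, adjusted p = 0.0420) and passed under both scalings, with an adjusted p of 0.0114 and 0.00855. ASNS changed by 0.093 ± 0.050 (limma adjusted p = 0.117), passed without AZ1366 replicate 1 (0.12, adjusted p = 0.0379) and passed under both scalings as well, but was -0.044 after length and GC correction. PSAT1 lay between 31.3 and 34.4 FPKM (log2 -0.077 ± 0.045, limma adjusted p = 0.145), and its sign turned under both scalings. After length and GC correction PSAT1 was called lower (-0.25, adjusted p = 7.04e-05), as was NUPR1 (-0.31, adjusted p = 0.0479). AZ1366 thus changed 5 of the 10 genes, or 5 of 9 without NUPR1, beside 6801 of all loci. Without AZ1366 replicate 1 it changed 8 of the 10, beside 7894 of all loci.

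The combination against vehicle shows the level reached with both compounds. NUPR1, CHAC1, DDIT4, ATF4 and ASNS were higher, DDIT3, TRIB3, PSAT1 and SESN2 lower, and PHGDH did not pass. Of all loci 79.3% passed, 29.9% higher and 49.4% lower, so the 9 of 10 here stand against a high background. Leaving out NUPR1, which the filter favoured, 8 of 9 passed, 4 higher and 4 lower. Groups did not overlap at 76.5% of all loci, 28.4% higher and 48.1% lower. The median change of all loci was -0.15, and 0.22 over the 10 or 0.11 without NUPR1. The share of calls that were higher went from 37.7% to 50.1% after median-ratio scaling and 48.6% after quantile normalization.

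NUPR1 read 7.96, 8.12, 7.55 and 7.14 FPKM with both compounds, 8.004 times the vehicle mean (log2 2.15 ± 0.088). CHAC1 read 5.46, 5.23, 5.33 and 5.46 FPKM, the highest values of any group, without overlap with the other 3 groups. CHAC1 was 2.43 times vehicle (log2 0.99 ± 0.067, limma adjusted p = 2.94e-10). DDIT4 was also highest here, at 46.3, 50.3, 42.9 and 40.7 FPKM, each above every library of the other groups. It was 54.3% above vehicle (log2 0.61 ± 0.085, limma adjusted p = 3.73e-06).

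ATF4 read 114, 111, 105 and 115 FPKM and ASNS 35.3, 33.2, 37.1 and 35.6, within or near their gefitinib ranges. The log2 changes from vehicle were 0.47 ± 0.094 for ATF4 (limma adjusted p = 0.000191) and 0.33 ± 0.050 for ASNS (limma adjusted p = 1.11e-05). Both genes were clear of all vehicle libraries. DDIT3 was lowest in this group, at 5.68, 5.73, 6.08 and 5.01 FPKM, so that it fell by 30.4% from vehicle (log2 -0.44 ± 0.11, limma adjusted p = 0.00104). TRIB3 read 42.5, 45.7, 36.6 and 37.7 FPKM, all under vehicle (log2 -0.37 ± 0.084, limma adjusted p = 0.000569). MARS fell by 0.33 beside DDIT3 (limma adjusted p = 8.83e-05).

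The small falls were less firm. PSAT1 read 31.0, 30.3, 32.7 and 31.2 FPKM, below each vehicle library (log2 -0.15 ± 0.045, limma adjusted p = 0.00468), but was 0.023 (adjusted p = 0.763) after median-ratio scaling. SESN2 read 3.30, 3.50, 2.85 and 2.88 FPKM and overlapped vehicle. Its change of -0.20 ± 0.091 passed narrowly (limma adjusted p = 0.0497), did not pass when any of 12 libraries was left out, and was 0.026 (adjusted p = 0.693) after length and GC correction. PHGDH read 13.8, 14.8, 13.4 and 15.1 FPKM, overlapping vehicle (log2 0.11 ± 0.058, limma adjusted p = 0.0895). It passed after median-ratio scaling (0.28, adjusted p = 8.89e-05) and quantile normalization (0.34, adjusted p = 1.36e-05).

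Whether the second compound adds to the first was asked by setting the combination against each single compound. Against AZ1366, gefitinib raised 6 genes and lowered none, where 26.9% of all loci were higher and 35.7% lower (62.6% in all), and 53.5% did not overlap, 22.7% higher and 30.8% lower. These were NUPR1 (2.26 ± 0.088), CHAC1 (0.86 ± 0.067), ATF4 (0.64 ± 0.094), DDIT4 (0.35 ± 0.085), PHGDH (0.32 ± 0.058) and ASNS (0.23 ± 0.050). Limma adjusted p for those other than NUPR1 ran from 5.02e-09 for CHAC1 to 0.00164 for DDIT4. Apart from NUPR1, which the filter favoured, 5 of 9 genes were thus higher, the same 5 that gefitinib raised from vehicle. The 2 comparisons share no library but share 1 estimate of the spread. How many of all loci moved the same way in both was not counted. TRIB3 changed by -0.068 ± 0.084 (limma adjusted p = 0.495), but was called lower with the length and GC correction (-0.14, adjusted p = 0.0435), and DDIT3 by -0.098 ± 0.11 (limma adjusted p = 0.439). SESN2 changed by 0.16 ± 0.091 (limma adjusted p = 0.129), and passed without AZ1366 replicate 1 (0.25, adjusted p = 0.0109) and under both scalings (adjusted p = 0.0123 and 0.00962). PSAT1 changed by -0.076 ± 0.045 (limma adjusted p = 0.150), and was called lower with the length and GC correction (-0.12, adjusted p = 0.00909) and without CTRL 1 and AZ1366 1 (adjusted p = 0.0484). With SESN2 called higher these settings gave 7 rises each, with 2 falls and 1 fall. All loci called there numbered 7568 and 7422, against 7294.

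Against gefitinib, AZ1366 raised CHAC1 by 0.33 ± 0.067 (limma adjusted p = 0.000780) and DDIT4 by 0.26 ± 0.085 (limma adjusted p = 0.0155) and lowered PSAT1 by 0.17 ± 0.045 (limma adjusted p = 0.00444). Of all loci 52.5% passed, 15.3% higher and 37.2% lower, with a median change of -0.10, and after median-ratio scaling the higher share of calls went from 29.1% to 48.8% and after quantile normalization to 49.6%. The PSAT1 fall was not called after median-ratio scaling (-0.059, adjusted p = 0.491) or quantile normalization (-0.096, adjusted p = 0.198). The DDIT4 rise was not called without combination replicate 2 (0.21, adjusted p = 0.0532) or after length and GC correction (0.18, adjusted p = 0.113). For ATF4 the change was -0.039 ± 0.094 (limma adjusted p = 0.748), with a 95% interval of -0.24 to 0.16, and for ASNS -0.017 ± 0.050 (limma adjusted p = 0.787), with an interval of -0.12 to 0.088. NUPR1 changed by 0.14 ± 0.088 (limma adjusted p = 0.178) and passed under both scalings, by 0.25 after median-ratio scaling and 0.30 after quantile normalization, but was -0.11 after length and GC correction. SESN2 changed by -0.19 ± 0.091 (limma adjusted p = 0.0910) and passed without AZ1366 replicate 1 (adjusted p = 0.0361), where only the estimate of the spread differs. The DDIT3 change of -0.22 ± 0.11 did not pass either (limma adjusted p = 0.0952), although its groups did not overlap (48.6% of all loci did not, 14.2% higher and 34.4% lower). It passed after length and GC correction (-0.45, adjusted p = 0.00635), in the compared libraries alone (adjusted p = 0.0193) and without CTRL 1 and AZ1366 1 (adjusted p = 0.0442). Under the length and GC correction ASNS (-0.091, adjusted p = 0.0389) and PHGDH (-0.13, adjusted p = 0.0434) were called lower too.

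**Figure D3:**
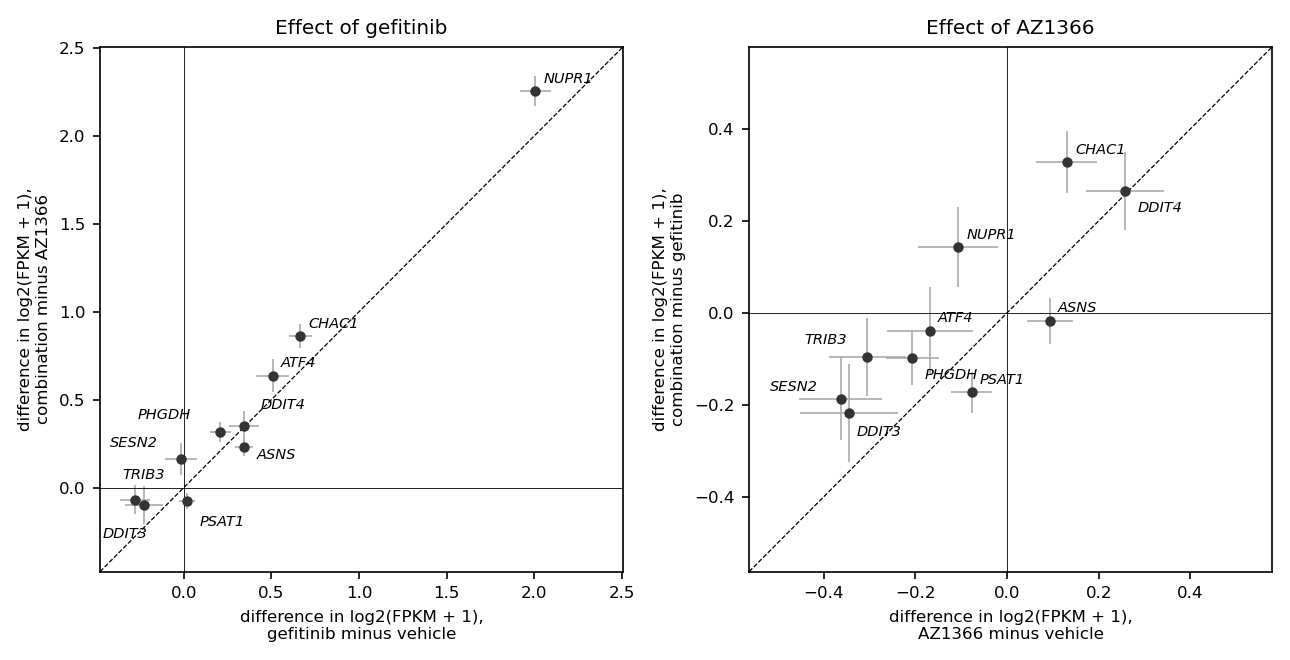
Left, the gefitinib effect without AZ1366 (horizontal, gefitinib minus vehicle) and with it (vertical, combination minus AZ1366); right, the AZ1366 effect without gefitinib (horizontal) and with it (vertical), all in log2(FPKM + 1) with standard errors, and a dashed line of equality. The 2 axes of a panel share no library. CHAC1 lies at 0.66 and 0.86 on the left, and at 0.13 and 0.33 on the right.

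The departure from additivity was tested as the interaction, and 0 of the 10 genes passed (limma, 0 at an unadjusted p under 0.05 as well), where 1.82% of all loci did, 0.326% higher and 1.49% lower. The share of these calls that were higher went from 17.9% to 29.8% after median-ratio scaling and 44.2% after quantile normalization. Without AZ1366 replicate 1 it was 49.7%, of 513 calls in place of 212. The values nearest to the threshold were CHAC1 at 0.20 ± 0.094 (unadjusted p = 0.0501, limma adjusted p = 0.348) and NUPR1 at 0.25 ± 0.12 (unadjusted p = 0.0589, limma adjusted p = 0.372). Their 95% intervals were -0.00014 to 0.40 and -0.011 to 0.51, so additivity is not shown. NUPR1 passed after quantile normalization (0.46, adjusted p = 0.0207). For DDIT4 the interaction was 0.0076 ± 0.12 (limma adjusted p = 0.981), with an interval of -0.24 to 0.26.

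The order of the genes shifted with treatment. ATF4 led in each group. TRIB3 was second with vehicle, gefitinib and AZ1366, but DDIT4 was second with both compounds, at 45.1 ± 4.20 against 40.6 ± 4.23 FPKM for TRIB3, ranges that overlapped. NUPR1 was last with vehicle and AZ1366 and seventh with gefitinib and with both compounds, where it stood level with DDIT3 under gefitinib (6.90 ± 0.809 and 6.71 ± 0.613 FPKM, overlapping) and above it with both. CHAC1 lay below SESN2 with vehicle and above it with gefitinib and with both compounds, in each case without overlap.

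The other genes of the pathway are read against all loci, of which 64.6% passed with gefitinib (27.7% higher, 36.9% lower, median -0.056), 58.4% with AZ1366 (18.6% and 39.8%, median -0.10) and 79.3% with both (29.9% and 49.4%, median -0.15). Among the kinases and factors that set eIF2 activity, 3 of 18 genes rose with gefitinib and 10 fell (72.2% called, median -0.18). EIF2B3, EIF2B5 and EIF2B1, subunits of the exchange factor that eIF2 phosphorylation blocks, fell by 0.57 ± 0.072, 0.48 ± 0.062 and 0.39 ± 0.049 (largest limma adjusted p = 3.10e-06). NCK1, an adaptor linked to eIF2 dephosphorylation, rose by 0.41 ± 0.063, and EIF2AK2, the kinase PKR, by 0.30 ± 0.11. With AZ1366, 1 rose and 10 fell (median -0.21). EIF2AK4, the amino acid sensing kinase GCN2, went from 20.6 ± 0.565 to 13.9 ± 2.17 FPKM (-0.54 ± 0.094), its activator GCN1L1 fell by 0.48 ± 0.077, and PPP1R15A, the stress-induced phosphatase subunit GADD34, by 0.50 ± 0.090. With both compounds 2 rose and 12 fell (median -0.38), with EIF2AK4 at 11.2 ± 1.10 FPKM (-0.82 ± 0.094), GCN1L1 at -0.83 ± 0.077 and EIF2B3 at -0.84 ± 0.072.

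The bZIP partners and relatives of ATF4 moved both ways. With gefitinib 4 of 10 tested genes rose and 2 fell (60.0% called, median 0.094). ATF3, a repressor that ATF4 induces, went from 3.68 ± 0.366 to 8.94 ± 0.503 FPKM (1.09 ± 0.064, limma adjusted p = 1.52e-10) and JDP2 from 3.57 ± 0.249 to 7.31 ± 0.552 (0.86 ± 0.076), while JUN fell by 0.49 ± 0.13. With AZ1366 1 rose and 5 fell, which scaling turned to 4 and 3 (median-ratio) or 4 and 2 (quantile). JUN was among the falls (-0.56 ± 0.13), and ATF3 stood at 3.95 ± 0.153 FPKM. With both, 4 rose and 4 fell, DDIT3, which is also on this list, among the latter, and the median of -0.061 turned to 0.11 after median-ratio scaling and 0.083 after quantile normalization. ATF3 was then at 9.56 ± 0.608 FPKM and JDP2 at 6.07 ± 0.300.

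Of 20 further genes known to respond to ATF4 or CHOP, 8 rose with gefitinib and 8 fell (80% called, median -0.048, or 0.0018 after median-ratio scaling). KLHL24 went from 2.16 ± 0.148 to 11.2 ± 0.838 FPKM (1.95 ± 0.062, limma adjusted p = 7.85e-14), GADD45A, a growth arrest gene, from 39.1 ± 8.07 to 78.0 ± 13.0, and PCK2, the mitochondrial enzyme that makes phosphoenolpyruvate, from 8.71 ± 0.845 to 16.3 ± 0.501. The falls were led by NDRG1 (-1.14 ± 0.067), the angiogenic factor gene VEGFA (-1.12 ± 0.11) and STC2 (-0.77 ± 0.10). With AZ1366 6 rose and 6 fell (median -0.0039), or 9 and 5 after median-ratio scaling and 6 and 8 without AZ1366 replicate 1. GADD45A was among the falls (-0.52 on the log2 scale). GDF15, a secreted stress hormone, went from 5.21 ± 0.209 to 10.1 ± 1.16 FPKM with AZ1366 (0.84 ± 0.073), and was at 5.203 ± 0.366 with gefitinib and 10.2 ± 0.722 with both. The sestrin gene SESN3 rose by 0.46 ± 0.085 with AZ1366 and by 1.17 ± 0.085 with both, unlike SESN2. With both compounds 7 rose and 6 fell (median -0.087, or 0.049 and 0.087 after median-ratio scaling and quantile normalization), with KLHL24 at 17.1 ± 0.269 FPKM (2.52 ± 0.062) and STC2 at 11.2 ± 1.19 (-1.51 ± 0.10). KLHL24 passed the interaction test (-0.40 ± 0.088, limma adjusted p = 0.0248), also without AZ1366 replicate 1 (-0.38, adjusted p = 0.0237). KLHL24 was also higher with AZ1366 alone than with vehicle. On the log2(FPKM + 1) scale the rise with both compounds was smaller than the single-compound rises added together. Additivity in FPKM was not tested.

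The amino acid supply genes gave both directions. Of 13 tested genes of serine, glycine, proline and one-carbon synthesis 3 rose with gefitinib and 5 fell (61.5% called, median -0.070), near the values over all loci, and both scalings gave 4 and 4. CTH, which makes cysteine, went from 1.68 ± 0.191 to 3.17 ± 0.430 FPKM (0.63 ± 0.074), PYCR1 of proline synthesis rose by 0.21 ± 0.049 and MTHFD2, the mitochondrial folate enzyme, by 0.16 ± 0.056. The cytosolic folate enzyme gene MTHFD1 fell from 91.9 ± 3.86 to 61.9 ± 1.56 FPKM, and to 42.4 ± 1.01 with both compounds (-1.10 ± 0.051, limma adjusted p = 2.43e-12). With AZ1366 none rose and 9 fell (median -0.24), among them ALDH18A1, the first enzyme of proline synthesis (-0.40 ± 0.055), and with both 1 rose and 9 fell (median -0.27). Median-ratio scaling left 6 falls with AZ1366, and 3 rises and 6 falls with both.

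Among 9 tested transporter genes 3 rose with gefitinib and 3 fell (66.7% called, median -0.013, or 0.050 and 0.028 after median-ratio scaling and quantile normalization). The glycine transporter gene SLC6A9 went from 1.60 ± 0.0956 to 3.38 ± 0.187 FPKM, the neutral amino acid transporter gene SLC1A4 from 5.02 ± 0.403 to 8.56 ± 0.305, and the cystine transporter gene SLC7A11 from 1.92 ± 0.101 to 2.57 ± 0.158. The glutamine transporter gene SLC1A5 fell by 0.43 ± 0.053. With AZ1366 2 rose and 4 fell (median -0.10), but 3 and 3 under both scalings. SLC38A2 rose by 0.34 ± 0.048, and SLC7A5 and SLC3A2, whose products form the leucine carrier, fell by 0.56 ± 0.067 and 0.38 ± 0.048. With both compounds 3 rose and 5 fell (median -0.36).

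Of 12 aminoacyl-tRNA synthetase genes 2 rose with gefitinib and 6 fell (66.7% called, median -0.15), a share near that of all loci. The risers were WARS, which interferon also induces, from 93.9 ± 3.46 to 136 ± 4.30 FPKM (0.53 ± 0.047), and CARS (0.27 ± 0.058), and the largest fall was that of IARS (-0.48 ± 0.046). WARS is also on the list of ATF4 and CHOP targets and is counted in both. With AZ1366 0 rose and 10 fell (median -0.30), and with both 2 rose and 9 fell (median -0.39).

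The ATF6 and XBP1 arm of the unfolded protein response, which acts beside ATF4 in the endoplasmic reticulum, gave 5 rises and 8 falls among 16 tested genes with gefitinib (81.2% called, median -0.17). HERPUD1, which is also on the list of ATF4 and CHOP targets, went from 13.9 ± 0.670 to 24.5 ± 1.01 FPKM (0.78 ± 0.047) and XBP1 from 41.0 ± 0.547 to 60.2 ± 1.05 (0.54 ± 0.041). The chaperone and folding genes SDF2L1 (-0.50 ± 0.056) and PDIA4 (-0.40 ± 0.12) fell. With AZ1366 2 rose and 4 fell (median -0.038). That balance turned with scaling, to 6 and 3 (median-ratio, median 0.080) or 5 and 3 (quantile, median 0.041). HSPA5, which encodes the chaperone BiP, fell by 0.32 ± 0.077 with AZ1366. With both, 4 rose and 10 fell (median -0.22), or 6 and 7 after median-ratio scaling (median -0.043), with HERPUD1 at 26.8 ± 0.800 FPKM and PDIA4 at -0.75 ± 0.12.

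**Figure D4:**
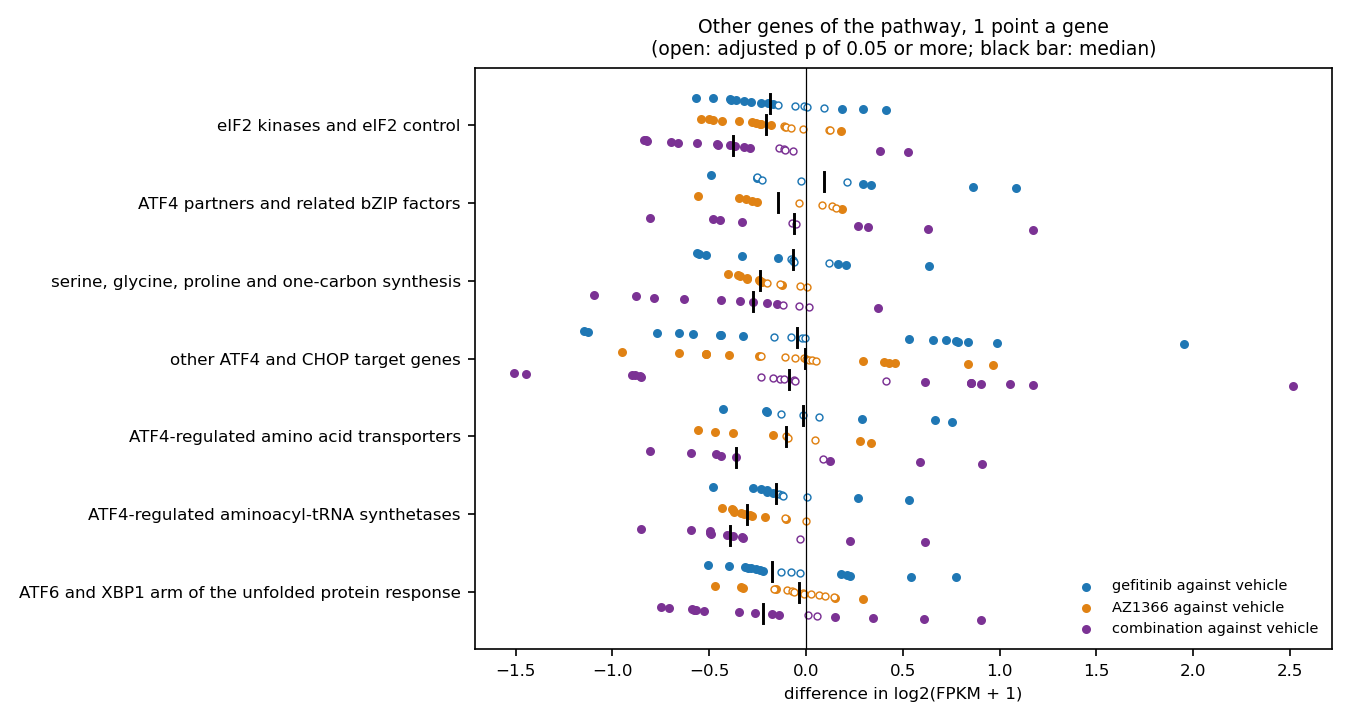
Difference in log2(FPKM + 1) from vehicle (horizontal axis) for each tested gene of 7 lists (vertical axis) with gefitinib, AZ1366 and the combination; open points did not pass an adjusted p of 0.05 and black bars are list medians. Each list spreads to both sides of 0 with gefitinib, and KLHL24 is the point farthest to the right, at 1.95 with gefitinib and 2.52 with both compounds.

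The ATF4 element was also searched in the listed genes outside the set. Of 95 that were tested, 76 had a promoter window under their own or an unambiguous former symbol. Several of the lists were drawn up of genes known to respond to ATF4. A higher share than over all genes would therefore not be a result of these data. Of the 76 genes 17 held TGATGNAA on either strand (22.4%), against 1217 of 27305 genes in the whole table (4.46%). The matches of the 5 of them that rose with gefitinib are shown first, then the 4 of them that fell most with both compounds, each with up to 10 bases on either side, on the strand that reads the element, which is in capitals.
ATF3: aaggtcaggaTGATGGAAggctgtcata
CARS: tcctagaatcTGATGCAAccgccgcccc
HERPUD1: gggcacgggcTGATGCAAcccgccgcgt
JDP2: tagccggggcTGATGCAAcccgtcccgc
SLC1A4: cggctggagaTGATGCAAacgggagccg
IARS: cgcacggaggTGATGCAAcgcgctgaaa
SLC7A1: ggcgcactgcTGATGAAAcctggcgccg
GOT1: ctgccgagaaTGATGCAAccaatgcaat
SLC1A5: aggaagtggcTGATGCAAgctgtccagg
With ASNS and CHAC1 these make 19 genes with a match, of which 7 rose with gefitinib, 8 fell and 4 did not pass (median -0.13). The 66 genes whose windows held none gave 20 rises and 27 falls (median -0.073). With both compounds the 19 genes gave 7 rises and 12 falls, and the 66 without a match 16 rises and 35 falls. Of all loci 79.3% passed in that comparison, 29.9% higher and 49.4% lower. Genes with the same letters thus moved both ways: ATF3 rose by 1.17 ± 0.064 and IARS fell by 0.85 ± 0.046 with both compounds. The match positions on GRCh38.p14 are chromosome 1, 212565216 to 212565223 for ATF3 and chromosome 9, 92293703 to 92293710 for IARS.

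Loci whose 4 group means followed each gene most closely were found by the root mean square difference of centred log2 means over the 4 groups, as a description. Nearest to ATF4 were ST3GAL4 (0.026), ACSM3 (0.027) and MOB3B (0.031), and nearest to ASNS was GNG12 (0.0105). CHAC1 was nearest to SLC16A4 (0.017), followed by a locus that joins ZBTB22 and TAPBP (0.020) and by FTL, ferritin light chain (0.026). NUPR1 had no close match, the nearest being the interferon-induced gene MX1 (0.10), NKAIN4 (0.13) and GBP1 (0.16). DDIT4 was nearest to H1FX (0.0039), PHGDH to COG6 (0.0065), PSAT1 to MYO1D (0.0049), SESN2 to DAGLB (0.0085), TRIB3 to ABCF3 (0.0070) and DDIT3 to PHF14 (0.0052). Within the set the closest pair was TRIB3 and DDIT3 (0.046).

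On hg19 the loci of the file are chromosome 22, 39916569 to 39918691 for ATF4, chromosome 7, 97481429 to 97501854 for ASNS, and chromosome 20, 361308 to 378203 for TRIB3. CHAC1 is on chromosome 15, 41245636 to 41248717, NUPR1 on chromosome 16, 28548662 to 28550495, and DDIT4 on chromosome 10, 74033677 to 74035797. SESN2 (28585963 to 28609002) and PHGDH (120254419 to 120286849) are both on chromosome 1, PSAT1 is on chromosome 9, 80912059 to 80945009, and the interval that DDIT3 shares with MARS is chromosome 12, 57881736 to 57914300.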

How the data were processed

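RNA abundance was measured in 16 libraries of HCC4006 cells, 4 per group, grouped by their titles. The authors deposited FPKM per locus. The build is hg19, and the tools named are Cufflinks 1.3.0, Cuffdiff and TopHat 1.4.1, both per the submitters' processing notes; the annotation and any further scaling are not given in the sources used here. Values were used as deposited; 0 per-sample columns went unused and 0 pairs of libraries were identical. Loci with a mean of at least 1 FPKM (11647) were tested by two-sided limma 3.58.1 tests (R 4.3.3) after a log2(FPKM + 1) transform. The model held the 4 groups, let variance follow the mean and had 12 residual degrees of freedom, with adjustment by Benjamini-Hochberg over those loci and a threshold of 0.05.

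The genes and lists were chosen with earlier results of these data known. All 10 genes are named, with up to 3 rises and 3 falls of largest change per list in each comparison against vehicle, of which the text prints part; GDF15 outside AZ1366, ATF3 with AZ1366, KLHL24 in the interaction and MARS fall outside that rule and were chosen after their values were seen. ATF5 and HSP90B1, listed, were not analysed here; since all 10 genes met the filter, none needed the separate test planned for genes below it. Locus starts count from 0 in the file, so 1 was added. Alternatives were a pseudocount of 0.1, no filter or a minimum of 5 FPKM, quantile normalization, median-ratio scaling, no trend, a block on the replicate number, a fit of the compared libraries alone, a correction for transcript length and GC content (GENCODE, for 98.1% of tested loci), and leaving out each library, or CTRL 1 and AZ1366 1 together.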

Additional observations from a re-analysis of the deposited data

Results flagged for a closer look

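Each of the 10 genes was checked in each of the 4 groups for a library far from the other 3, by the gap to its neighbour as a share of the group's range, with a limit of 0.829. Chance flags about 1 in 20 groups. Of 40 groups 1 was flagged: CHAC1 in AZ1366 replicate 2 was 2.24 FPKM, against 2.58 for its nearest neighbour, a gap of 0.906 of the range. Without that library the CHAC1 change with AZ1366 did not pass either.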

How the results depend on the processing

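Of 1532 changes of the 10 genes under the alternatives, 1439 kept their direction and their side of the threshold. Small changes turned sign. With gefitinib against vehicle SESN2 was 0.036 after median-ratio scaling, 0.11 with the length and GC correction, 0.037 when CTRL 1 and AZ1366 1 were left out, and -0.066 to 0.037 when single libraries were left out; PSAT1 was -0.099 after length and GC correction. With AZ1366 PSAT1 was 0.012 after quantile normalization and 0.044 after median-ratio scaling, and ASNS -0.044 after length and GC correction. With both against vehicle PSAT1 was 0.023 after median-ratio scaling and SESN2 0.026 after length and GC correction. For the combination against gefitinib ASNS was 0.053 and PHGDH 0.039 after quantile normalization; ATF4 was 0.078, ASNS 0.097, TRIB3 0.019 and PHGDH 0.012 after median-ratio scaling; NUPR1 was -0.11 after length and GC correction, and ASNS ran from -0.041 to 0.010 with single libraries left out. The DDIT4 interaction came to -0.055 with the length and GC correction, to -0.043 after quantile normalization and -0.065 to 0.066 with single libraries left out. The number of the 10 genes called with AZ1366 ran from 4 to 8 with single libraries left out, 8 without AZ1366 replicate 1. All loci called ran from 5903 to 7894. For the combination against gefitinib 5 of the 10 were called, in place of 3, in each of 3 settings. These were a fit of the compared libraries alone, the length and GC correction, and CTRL 1 and AZ1366 1 left out. All loci called there numbered 6702, 5854 and 7082, against 6118. For the interaction 1 of the 10 genes was called after quantile normalization. All loci called for the interaction numbered 620 after quantile normalization and 419 after median-ratio scaling, against 212. With single libraries left out they ran from 101 (without vehicle replicate 4) to 513 (without AZ1366 replicate 1). Except where fewer samples or another scaling is the alternative itself, the cause was not tested. The minimum of 5 FPKM left 7 of the 10 genes in the fit. The labels do not say whether the replicate numbers mark a shared batch, and the main fit did not pair the libraries by them. Not every same-numbered pair deviated together. Many did in part: over 24 pairs from different groups r ran from -0.447 to 0.539, with 16 over 0.1. The median was 0.215, against -0.0914 over 72 pairs of different number, and 4 of 16 libraries correlated best with their own number. Whether a batch follows the number was not tested. With the replicate block the genes called were 7, 5, 9, 3, 6 and 0 in the 6 comparisons, as without it. Loci called were 7864, 7131, 9388, 6522, 7613 and 227, against 7521, 6801, 9241, 6118, 7294 and 212 without it. The unknown depth limits the lowest gene, NUPR1, most.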
